A study of Mus musculus with 4 samples.

Results

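The Myc and MycN libraries, taken here as those of the full-length proteins, were each compared with the Minimal Myc library in immortalized mouse embryonic fibroblasts, a fibroblast culture that divides without limit. Genes were chosen where both full-length libraries lay on 1 side of Minimal Myc, which held for 8860 of the 11950 genes kept (74.1%) out of 23366 gene names in the table. The most marked content of that set was an antiviral programme: 132 of 151 measured interferon-pathway genes were lower in both full-length libraries than in Minimal Myc, against 37.1% of all genes kept, and 93 were at least 2-fold lower in both, against 3.55%.

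RNA was sequenced from 4 cultures with 1 library each, carrying an empty vector, Myc, MycN or Minimal Myc. All 4 cultures had been given Cre recombinase, a DNA-cutting enzyme, by adenovirus, and were harvested after a recovery that the labels give as 48 with no unit. The series design speaks of cells with Myc deleted, to which cells holding Myc, MycN or Minimal Myc were compared. The labels say neither which sequence Minimal Myc retains nor from which gene it was made, and give no promoter, clone number or level for the added proteins. Because each group is 1 library, no difference below has a replicate check, no p-value is given, and Myc and MycN are 2 proteins rather than 2 replicates. Both differences use the same Minimal Myc library, so a value peculiar to that library puts both on the same side.

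Myc and MycN are transcription factors of 1 family that pair with the protein Max, bind the E-box sequence and are known for driving ribosome production, metabolism and division. Interferons are secreted antiviral proteins. When they bind their receptors, kinases such as Tyk2 activate a complex that includes Stat2 and Irf9 and binds the interferon-stimulated response element, or ISRE, in front of antiviral genes. Fibroblasts make and answer type I interferon, and sense viral RNA and DNA through receptors in the cytosol.

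The targeted genes were read before the rest. Myc stood at 141 FPKM in Myc, 4.36 in MycN, 32.6 in Minimal Myc and 22.2 in vector, where FPKM are fragments scaled to transcript length and library size. Mycn stood at 0.275 FPKM in Myc, 178 in MycN, 95.9 in Minimal Myc and 0.390 in vector. Each full-length library thus had the higher level of the gene it is labelled for, and Minimal Myc held transcripts counted to both. Max, the shared partner, was 37.3 FPKM in Myc, 36.2 in MycN, 34.5 in Minimal Myc and 18.8 in vector, so the 3 libraries with an added protein differed little.

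Differences are given on the log2(FPKM + 1) scale, which understates those of low genes, and each was centred by subtracting its median over all genes kept. That median was 0.03 for Myc minus Minimal Myc and -0.04 for MycN minus Minimal Myc. Both full-length libraries lay above Minimal Myc in 4430 genes (37.1% of 11950) and below it in 4430 (37.1%), and the remaining 3090 had Myc and MycN on opposite sides. With both differences centred on their medians, the equal split of the 2 sides follows from the calculation. At least 2-fold in both, 170 genes were higher (1.42% of 11950) and 424 lower (3.55%). The authors' second table is labelled as scaled by NanoString, the hybridization readout described below. In it each library is multiplied by 1 factor (1.28 for Minimal Myc, 2.04 for Myc, 1.30 for MycN and 1 for vector). The median difference without centring in that scaled table was 0.64 for Myc and -0.01 for MycN. There 409 genes were at least 2-fold higher in both and 268 lower, so the balance of the 2 sides depends on the scaling. Of the 424 lower genes 258 were among those 268, and all 170 higher genes were among the 409.

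**Figure D1:**
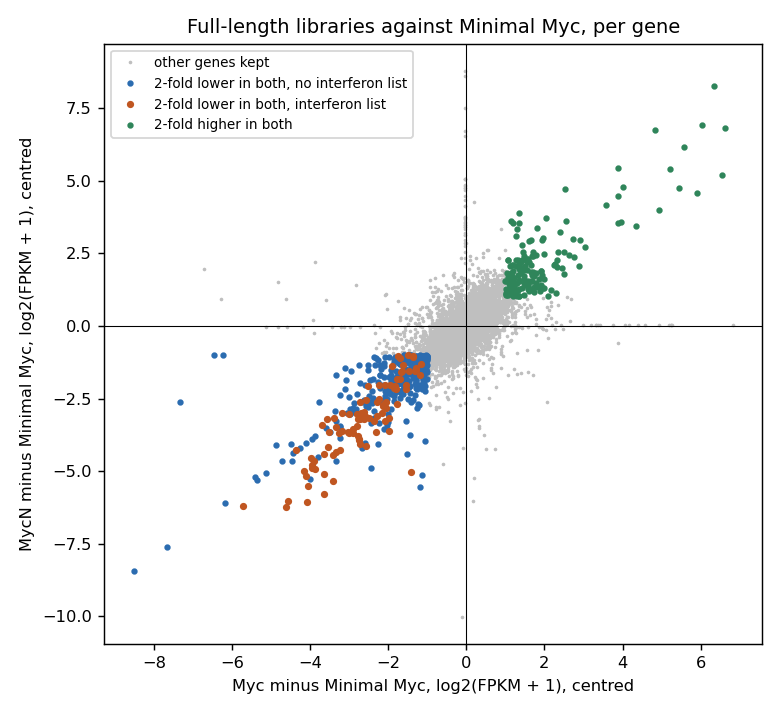
Centred difference from Minimal Myc in the Myc library (x axis) and the MycN library (y axis), both on log2(FPKM + 1), with 1 point per gene for the 11950 genes kept. The 93 interferon genes at least 2-fold lower in both lie in the lower left, none of the 170 genes in the upper right is on an interferon list, and points farthest to the upper right include small RNA genes, which were left out of naming.

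At the margins, Pelp1 was the gene nearest 0 with both libraries on 1 side (-7.22e-05 and -0.23), and Impad1 the one nearest 0 with the libraries apart (-0.00273 and 0.00422). Fbxo36 lay just inside the 2-fold limit on the high side (1.001 and 1.54) and Jup just outside it (0.998 and 1.30). On the low side Col5a2 was just inside (-1.03 and -1.0003) and H2-Q1 just outside (-1.44 and -0.9997). Averaged over the 4 libraries a gene had to reach 1 FPKM, which Mss51 passed at 1.004 and Prox2 missed at 0.998.

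Sequences in front of the lower genes are shown first, because the ISRE is what the complex with Stat2 and Irf9 binds. Promoter windows from 250 bases before to 50 after each start were taken from RefSeq, build GRCm38.p6, for 9251 of the genes kept, and searched on both strands for GAAANNGAAA. The stretches below were chosen from genes of the interferon lists alone. Genes that could not be named, and some genes by their position in the genome, were left out before that choice. Shown are the 8 with the largest smaller-of-both difference among the remaining at least 2-fold lower genes with a match. Each reads 5′ to 3′ on the gene's own strand, with the matched bases in capitals.
Ifit3: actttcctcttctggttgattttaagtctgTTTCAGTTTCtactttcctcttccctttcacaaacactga
Gbp3: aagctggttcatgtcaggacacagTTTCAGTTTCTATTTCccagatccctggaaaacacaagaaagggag
Isg15: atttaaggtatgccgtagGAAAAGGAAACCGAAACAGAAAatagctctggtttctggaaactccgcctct
Oas1a: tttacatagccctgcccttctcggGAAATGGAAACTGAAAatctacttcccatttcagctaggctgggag
Oas3: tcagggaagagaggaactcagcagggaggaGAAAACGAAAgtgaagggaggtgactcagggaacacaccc
Bst2: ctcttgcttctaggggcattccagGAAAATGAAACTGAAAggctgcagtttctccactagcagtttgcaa
Oas1g: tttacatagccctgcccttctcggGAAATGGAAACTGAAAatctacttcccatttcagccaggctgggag
Apol9b: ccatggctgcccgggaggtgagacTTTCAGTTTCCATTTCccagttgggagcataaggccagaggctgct

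On GRCm38.p6 these stretches lie at chr19:34583377-34583446 (Ifit3, plus strand), chr3:142559975-142560044 (Gbp3, plus), chr4:156200845-156200914 (Isg15, minus) and chr5:120907500-120907569 (Oas1a, minus). The others are at chr5:120777695-120777764 (Oas3, minus), chr8:71537557-71537626 (Bst2, minus), chr5:120887586-120887655 (Oas1g, minus) and chr15:77729011-77729080 (Apol9b, plus). The match centred in each stretch begins between 12 bases (Oas1g) and 124 bases (Bst2) before the annotated start. In Ifit3, Gbp3 and Apol9b the match reads on the opposite strand. The stretches of Oas1a and Oas1g differ by little, since these genes are copies of each other.

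Of the at least 2-fold lower genes with a promoter window, 57 of 285 (20%) held the ISRE letters, against 340 of 9251 genes kept (3.68%) and 1131 of 32851 promoters in the whole table (3.44%). The share was 34 of 68 (50%) in lower genes of the interferon lists and 23 of 217 (10.6%) in lower genes outside them. Interferon list genes that were not 2-fold lower held it in 8 of 45 (17.8%), and the higher genes in 2 of 94 (2.13%). By role, 7 of 8 GTPase promoters, 19 of 42 antiviral effector promoters and 5 of 21 MHC class I promoters had a match. The other motifs were searched in the same windows. The GAS element (TTCNNNGAA), another element of interferon-answering promoters, was in 33 of 285 lower genes (11.6%), 13 of 94 higher genes (13.8%) and 8.14% of genes kept. The NF-kB motif (GGGANNNNCC) was in 27.4% of lower and 38.3% of higher genes, against 30.1% of genes kept. The E-box CACGTG was in 26 of 285 lower genes (9.12%) and 15 of 94 higher genes (16.0%), against 1110 of 9251 genes kept. Within the lower genes of the interferon lists the E-box was in 1 of 68 (1.47%), and it was in 0 of 42 antiviral effectors, while GAS was in 12 of 68 (17.6%) and in 4 of 8 GTPases. Matches of these motifs may overlap one another, and a match is a description of letters in this window only.

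Interferon itself was near the floor of detection. Ifnb1, the fibroblast's own type I interferon, was 1.25 FPKM in Minimal Myc, 0.0774 in Myc, 0.0377 in MycN and 0.314 in vector, and its mean missed the filter on low values. It was highest in Minimal Myc. Of 16 ligand and receptor genes 5 passed that filter, and 4 of the 5 were lower in both full-length libraries, with a median of -0.50 for the mean of both differences and 0 at least 2-fold lower. Over all genes kept 37.1% were lower in both and 3.55% at least 2-fold lower. Ifnar2, a receptor chain of type I interferon, was 23.3 FPKM in Myc, 22.7 in MycN, 45.3 in Minimal Myc and 14.9 in vector. Ifnar1, the other chain, was 9.64, 10.8, 14.9 and 10.2 FPKM in the same order. Il10rb, a chain shared by the receptors of interferon lambda and Il10, stood at 13.7 FPKM in Myc, 9.14 in MycN, 25.7 in Minimal Myc and 9.52 in vector. For all of these the highest level was in Minimal Myc.

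Sensors of viral nucleic acid were lower in both full-length libraries in 19 of 25 measured genes, 14 of them at least 2-fold, with a median of -1.64. For all genes kept the shares were 37.1% and 3.55%. Zbp1, a sensor of left-handed nucleic acid, was 3.46 FPKM in Myc, 0.407 in MycN, 107 in Minimal Myc and 4.88 in vector. Ifih1, the cytosolic RNA sensor Mda5, was 1.57, 0.844, 16.4 and 2.85 FPKM in that order. Dhx58, a helicase that modulates the RNA sensors, was 4.04, 2.81, 29.4 and 3.29 FPKM. In each of them Minimal Myc was the highest library and MycN the lowest. Ifi203 and Mndal, of the family of interferon-inducible DNA-binding proteins, were 44.2 and 34.3 FPKM in Minimal Myc and between 1.03 and 6.69 FPKM in the other libraries. The 3 sensors higher in both full-length libraries were Tlr4, which recognizes bacterial lipopolysaccharide, Aim2 and the adaptor Ticam1. Tlr4 was 4.02 FPKM in Myc, 4.57 in MycN, 2.02 in Minimal Myc and 1.84 in vector.

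Transducers of the interferon signal included genes of the complex that binds the ISRE. Of 14 measured genes 11 were lower in both (37.1% of all genes kept) and 4 at least 2-fold (3.55% of all), with a median of -0.55. Irf7, Stat2 and Irf9 were among those 4. Irf7, which amplifies the interferon loop, was 3.83 FPKM in Myc, 0.685 in MycN, 58.3 in Minimal Myc and 7.41 in vector. Stat2 and Irf9 were 35.0 and 36.1 FPKM in Minimal Myc and between 4.14 and 10.02 FPKM elsewhere. All 3 were highest in Minimal Myc and lowest in MycN. Stat5a, a signal transducer of cytokines and growth hormone, was 2.90 FPKM in Myc, 3.84 in MycN, 6.24 in Minimal Myc and 2.08 in vector. Of 10 measured inhibitors of the pathway 5 were lower in both and 2 at least 2-fold lower, against 37.1% and 3.55% of all genes kept. Their median was -0.34, and 0.16 in the scaled table without centring. Usp18, which blocks the type I receptor and is itself induced by interferon, was 7.33 FPKM in Myc, 0.988 in MycN, 136 in Minimal Myc and 5.74 in vector. Trex1, an exonuclease that clears cytosolic DNA, was 9.55, 7.52, 24.1 and 6.61 FPKM in the same order.

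Antiviral effectors, the proteins that block viral replication, made up the bulk of the group. Of 53 measured genes 51 were lower in both full-length libraries, 45 of them at least 2-fold, with a median of -2.58 in Myc and -3.19 in MycN. For all genes kept the shares were 37.1% and 3.55%. Ifi44, the lowest gene over all those that could be named, was 1.67 FPKM in Myc, 0.809 in MycN, 136 in Minimal Myc and 4.35 in vector. Its centred differences were -5.71 and -6.21. Ifit3, which with its relatives binds foreign RNA, was 7.68 FPKM in Myc, 1.996 in MycN, 141 in Minimal Myc and 6.60 in vector. Mx2, a dynamin-like antiviral protein, was 1.33, 0.239, 39.8 and 1.16 FPKM. For each of these genes Minimal Myc was far above the other libraries and MycN was the lowest.

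Isg15, a ubiquitin-like modifier, was 50.3 FPKM in Myc, 28.4 in MycN, 753 in Minimal Myc and 58.4 in vector. Bst2, or tetherin, which holds budding virus at the cell surface, was 93.9 FPKM in Myc, 43.8 in MycN, 997 in Minimal Myc and 77.9 in vector. Oas1a, an enzyme that makes the signal for RNase L, was 5.63, 0.439, 80.0 and 3.54 FPKM, and Oas3, a relative, was 1.002, 0.742, 21.6 and 1.51 FPKM. These 4 are among the genes of the printed ISRE stretches and are described for that reason. Slfn2, a Schlafen protein, was 3.23 FPKM in Myc, 0.925 in MycN, 70.3 in Minimal Myc and 1.38 in vector. Rtp4, a chaperone of receptors that is induced by interferon, was 3.51, 1.87, 68.4 and 4.90 FPKM. Slfn5 was the 1 effector higher in both, and Isg20 the 1 that had Myc and MycN on opposite sides. After centring MycN was below Myc in 43 of the 53, against 5874 of 11950 genes kept. MycN was the lowest of all 4 libraries in 34, against 1407 of 11950 genes in which it was lowest.

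All 15 measured interferon-inducible GTPases, proteins that attack the vacuoles of intracellular pathogens, were at least 2-fold lower in both, against 3.55% of all genes kept. Their median was -2.93 in Myc and -3.68 in MycN. Iigp1 was 2.37 FPKM in Myc, 0.170 in MycN, 77.9 in Minimal Myc and 1.03 in vector. Gbp3, a guanylate-binding protein, was 4.34, 1.88, 80.0 and 3.54 FPKM in the same order, and Igtp was 4.61, 1.66, 54.7 and 2.63. MycN was the lowest of the 4 libraries for 14 of the 15, against 1407 of 11950 genes kept. A further 6 listed genes missed the filter on low values, which a gene high in Minimal Myc alone passes more easily.

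**Figure D2:**
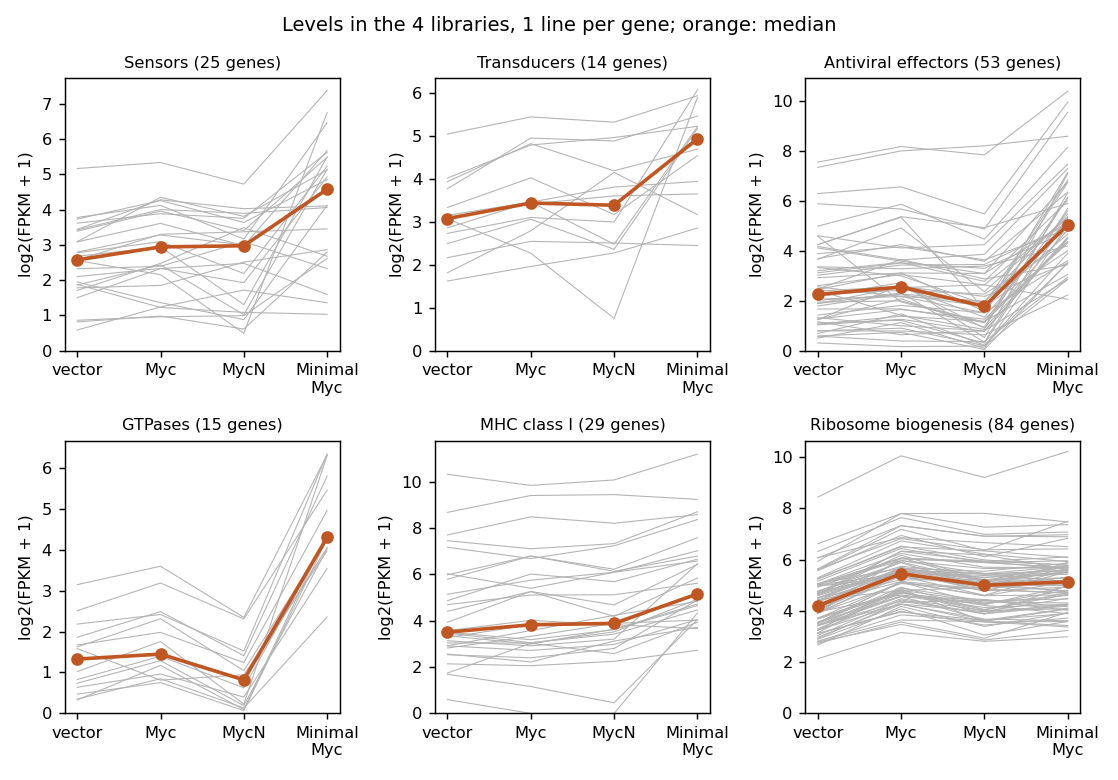
Level of each measured gene as log2(FPKM + 1) in the 4 libraries, with 1 grey line per gene and the median in orange, for 5 interferon lists and for ribosome biogenesis. Medians of the interferon lists peak in Minimal Myc, whereas the median of the 84 ribosome biogenesis genes peaks in Myc.

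Antigen presentation by MHC class I was lower by less. Of 29 measured genes 27 were lower in both, 13 at least 2-fold, against 37.1% and 3.55% of all genes kept. Their median was -1.28 in Myc and -1.04 in MycN. Psmb8, an immunoproteasome subunit, was 6.52 FPKM in Myc, 8.22 in MycN, 86.3 in Minimal Myc and 7.77 in vector. Tap1, the peptide transporter, was 4.27, 5.97, 28.7 and 4.78 FPKM in that order. B2m, the invariant light chain, was 911 FPKM in Myc, 1073 in MycN, 2324 in Minimal Myc and 1269 in vector. H2-Q8 was 19.1 FPKM in Minimal Myc and 0.509 in vector, with 0.000128 in Myc and 9.21e-05 in MycN, and H2-Q7 was 15.5 FPKM in Minimal Myc and at most 2.22 elsewhere. The H2-Q genes are near-identical copies among which reads can be shared, so single values of the family are uncertain, and so are those of the Oas, Gbp and Ifit copies. The 2 class I genes higher in both were Tapbpl, a relative of tapasin, and Calr, calreticulin. After centring MycN was below Myc in 9 of 29 genes here, against 5874 of 11950 genes kept, unlike the effectors and GTPases.

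The vector library was not part of the difference that ordered the genes. Its own distance is taken from the same Minimal Myc library, so genes chosen as high there tend to place vector with the full-length libraries. Of the 93 lower interferon genes vector was nearer to the full-length libraries than to Minimal Myc in 91 (97.8%), and below Minimal Myc by at least 2-fold in 91 before and 85 after centring. Over all genes kept vector was nearer to the full-length libraries in 57.9%. Median levels of the 93 were 34.5 FPKM in Minimal Myc, 4.35 in vector, 4.41 in Myc and 1.88 in MycN. For the other 331 lower genes vector was nearer to the full-length libraries in 216 (65.3%), with medians of 17.9, 5.003, 3.76 and 3.16 FPKM in that order. In most of these interferon genes Minimal Myc thus stood apart from the 3 other libraries, which the choice of genes on that library favours.

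Markers of other cell types were read beside this. Of 16 immune cell markers 4 passed the filter, and the summed level of the list was 18.7 FPKM in Minimal Myc, 22.8 in Myc, 59.5 in MycN and 16.6 in vector. Ptprc, the leukocyte surface marker CD45, was listed at 0 in Minimal Myc and reached at most 0.0215 FPKM elsewhere, and Tyrobp and Emr1, of myeloid cells, were listed at 0 in Minimal Myc as well. Cd14, a lipopolysaccharide co-receptor of myeloid cells, passed the filter and was highest in Minimal Myc, at 8.70 FPKM in Myc, 6.79 in MycN, 13.0 in Minimal Myc and 7.03 in vector. Most of the MycN sum came from Cd74, the MHC class II chaperone, at 6.96 FPKM in Myc, 42.9 in MycN, 2.06 in Minimal Myc and 3.39 in vector. Epithelial, endothelial and skeletal muscle markers summed to at most 16.2 FPKM in any library, adipocyte markers to 16.0 to 63.0 and neural markers to 32.2 to 51.7. Fibroblast markers summed to 2655 to 3620 FPKM and 11 of 12 passed the filter, with 4 higher in both, 2 lower and 5 on opposite sides. Col1a1 was 243 FPKM in Myc, 240 in MycN, 190 in Minimal Myc and 147 in vector. The lower ones were Thy1, a surface glycoprotein, at 115, 95.5, 354 and 208 FPKM in the same order, and Pdgfrb, a growth factor receptor, at 21.7, 23.5, 42.1 and 23.5. In a bulk library fewer cells of a type and less RNA per cell cannot be told apart.

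Inflammatory genes overlapped with the interferon pattern in direction and were fewer. Of 63 measured genes of the inflammation lists 41 were lower in both, 15 at least 2-fold, and 14 were higher, 3 at least 2-fold. The shares over all genes kept were 37.1% on each side, 3.55% at least 2-fold lower and 1.42% at least 2-fold higher. The 14 chemokines had a median of -1.30. Ccl2 and Ccl7, which draw monocytes, were 576 and 321 FPKM in Myc, 398 and 146 in MycN, 1193 and 791 in Minimal Myc, and 328 and 163 in vector. Cxcl5, which draws neutrophils, was 41.4, 128, 358 and 59.4 FPKM. Cx3cl1, a membrane-bound chemokine, went the other way at 5.47 FPKM in Myc, 24.5 in MycN, 1.60 in Minimal Myc and 2.90 in vector. The platelet basic protein gene Ppbp, beside Cxcl5 in the genome, was 7.82, 10.5, 195 and 31.8 FPKM in Myc, MycN, Minimal Myc and vector.

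The 11 cytokines had a median of -0.93, and 4 were at least 2-fold lower in both, against 3.55% of all genes kept. Il6, the inflammatory cytokine, was 4.86 FPKM in Myc, 1.08 in MycN, 23.8 in Minimal Myc and 1.58 in vector. Il33, an alarm signal of damaged cells, was 3.85, 0.690, 27.7 and 9.39 FPKM. Acute phase and complement genes divided. Saa3 was 30.7 FPKM in Myc, 34.4 in MycN, 227 in Minimal Myc and 3.34 in vector, and Ptx3, a soluble pattern receptor, was 27.4, 48.2, 128 and 15.1. Complement C3 was instead 15.0 FPKM in Myc and 76.9 in MycN against 5.91 in Minimal Myc and 8.33 in vector. The list median of -0.29 became 0.20 in the scaled table without centring. Of 24 NF-kB pathway genes 15 were lower in both, against 37.1% of all genes kept, but 3 at least 2-fold. Among those 3 was Ptgs2, the inducible prostaglandin synthase, at 44.5, 16.9, 179 and 70.6 FPKM. The median of the 24 was -0.19, and 0.13 in the scaled table without centring.

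Growth genes, which Myc proteins are best known to drive, did not form a group 2-fold away from Minimal Myc. Of 84 ribosome biogenesis genes 31 were higher in both, 17 lower and 0 at least 2-fold either way, near the 37.1% of all genes on each side for the higher ones. The list divided the 2 proteins instead, with a median of 0.29 in Myc and -0.09 in MycN. After centring MycN was below Myc in 80 of 84, against 5874 of 11950 genes kept. Wdr43, a nucleolar processing factor, was 79.2 FPKM in Myc, 71.6 in MycN, 48.0 in Minimal Myc and 23.7 in vector. Dcaf13, another, was 39.3, 35.4, 53.6 and 30.2. Ribosomal protein genes showed the same division, with medians of 0.24 in Myc and -0.13 in MycN and MycN below Myc in 76 of 81. Rps2 was 4562 FPKM in Myc, 4394 in MycN, 2934 in Minimal Myc and 2236 in vector, and such genes have processed copies that make single values uncertain. Translation factors (46 genes, median -0.03) and nucleotide synthesis (40 genes, median -0.05) had 0 genes at 2-fold. For both, the median was above 0 in the scaled table without centring (0.31 and 0.27).

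Of 13 polyamine metabolism genes 3 were higher in both and 6 lower, against 37.1% of all genes kept on each side. None was at 2-fold, and the median was -0.12 (0.21 in the scaled table without centring). Odc1, the first enzyme, was 212 FPKM in Myc, 112 in MycN, 104 in Minimal Myc and 93.7 in vector. Srm, spermidine synthase, was 254, 190, 143 and 56.9 FPKM in the same order. Smox, spermine oxidase, was lower in both, at 9.48 FPKM in Myc, 11.6 in MycN, 19.8 in Minimal Myc and 9.69 in vector. Glycolysis genes were higher in both in 10 of 21 and lower in 3, with a median of 0.35 in Myc and -0.07 in MycN. Tpi1, triose phosphate isomerase, was 696, 547, 430 and 288 FPKM. Slc16a1, a lactate transporter, was 22.8, 16.9, 13.9 and 9.25. In Odc1, Srm, Tpi1 and Slc16a1 Myc was highest and vector lowest.

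Amino acid genes were mostly lower in both full-length libraries. For all genes kept, 37.1% were lower in both and 3.55% at least 2-fold lower. Of 23 tRNA synthetases 16 were lower in both and 4 higher, with 0 at 2-fold and a median of -0.34 that shrank to -0.01 in the scaled table without centring. Nars, for asparagine, was 139 FPKM in Myc, 106 in MycN, 208 in Minimal Myc and 138 in vector. Of 27 serine, folate and Atf4 target genes 18 were lower, 4 at least 2-fold, with a median of -0.41 (-0.07 in the scaled table without centring). Cth, which makes cysteine, was 6.47 FPKM in Myc, 3.84 in MycN, 37.1 in Minimal Myc and 6.24 in vector. Atf5, a stress transcription factor, was 56.6, 28.6, 134 and 98.9 FPKM. Ddit4, an inhibitor of mTORC1, went the other way at 48.8, 42.9, 17.2 and 8.97 FPKM. Endoplasmic reticulum chaperones were lower in 18 of 28, with 0 at 2-fold and a median of -0.32 (0.02 in the scaled table without centring). Dnajb11, a co-chaperone, was 40.0, 37.3, 72.5 and 30.8 FPKM. Oxidative phosphorylation genes were lower in 44 of 76, 1 at least 2-fold, with a median of -0.17 that became 0.17 in that table.

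Mitosis genes leaned to the high side by small amounts. Of 51 genes 30 were higher in both, against 37.1% of all genes, and 9 lower, 0 at 2-fold, with a median of 0.23 in Myc, 0.17 in MycN and -0.05 in vector. Bub1b, of the spindle checkpoint, was 62.9 FPKM in Myc, 66.0 in MycN, 42.8 in Minimal Myc and 28.7 in vector. Ncapd2, of condensin, was 68.1, 73.2, 43.2 and 40.6. Of 49 DNA replication genes 21 were higher, near that share, and 14 lower, 0 at 2-fold, around a median of 0.02 (-0.03 with MycN alone). Cdkn2b, the Cdk inhibitor p15, was 31.5 FPKM in Myc, 24.6 in MycN, 70.5 in Minimal Myc and 21.6 in vector. Replication-dependent histones, a list added after values were seen, were higher in both in 45 of 56 and lower in 1, with 0 at 2-fold and a median of 0.43. Their messages lack a poly(A) tail, and in vector they were higher still, at a median of 1.52 over Minimal Myc. Rmrp, another RNA with no poly(A) tail, was 22.5 FPKM in Myc, 57.7 in MycN, 14.9 in Minimal Myc and 118 in vector. The part of poly(A) selection in the histone values was not tested.

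**Figure D3:**
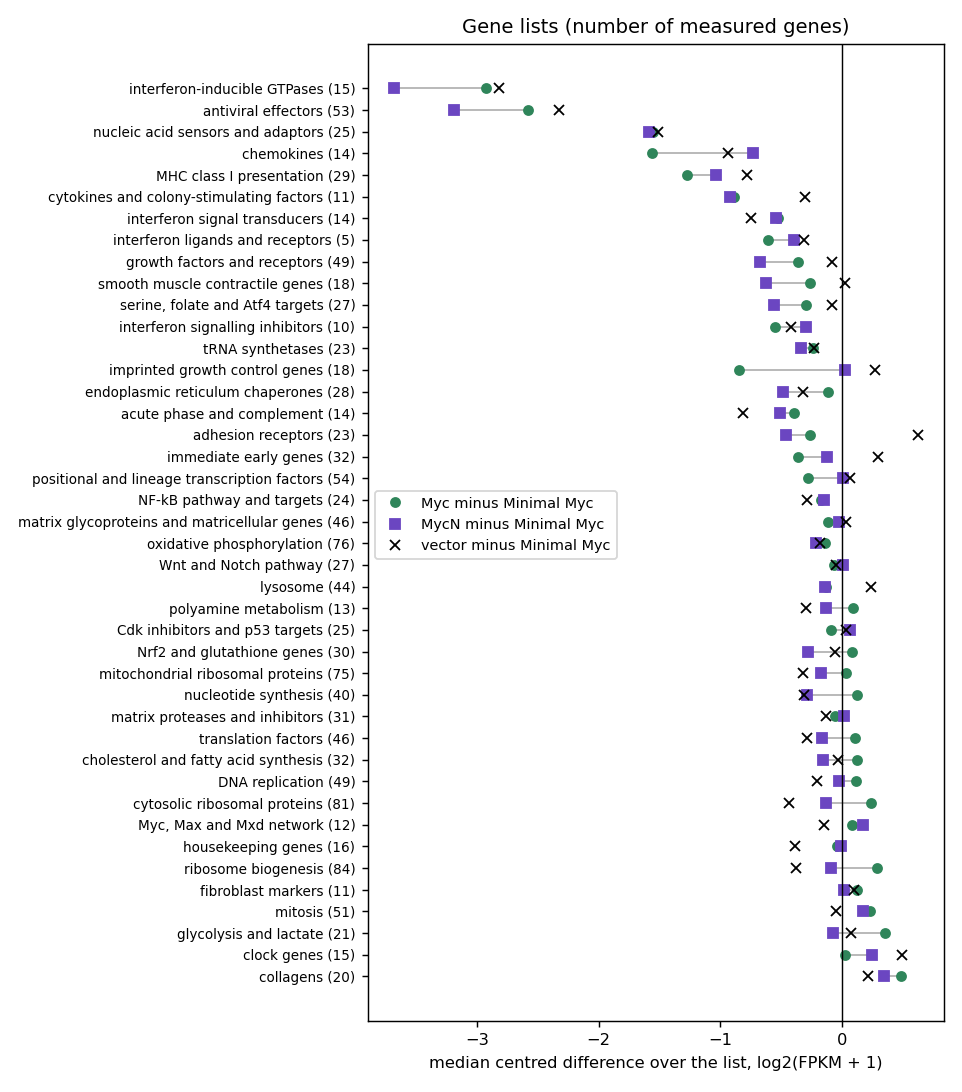
Median centred difference from Minimal Myc on log2(FPKM + 1) over each gene list with at least 5 measured genes (number in brackets), for Myc, MycN and vector. Interferon GTPases and antiviral effectors stand at -2.93 and -2.58 in Myc and -3.68 and -3.19 in MycN, while ribosome biogenesis stands at 0.29 and -0.09 and mitosis at 0.23 and 0.17.

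The 12 genes highest in both full-length libraries came from no single list. Atp6v0c-ps2, a pseudogene of a proton pump subunit, was 15.7 FPKM in Myc, 26.8 in MycN, 0.0221 in Minimal Myc and 53.2 in vector, and as a copy of an expressed gene its value is uncertain. Pla2g7, a phospholipase that breaks down platelet-activating factor, was 14.4, 14.3, 1.02 and 4.87 FPKM in the same order. Col6a3, a chain of collagen VI, was 22.5, 25.9, 2.45 and 8.74. In these 3 genes Minimal Myc was the lowest library and vector lay between or above. Gchfr, a feedback regulator of tetrahydrobiopterin synthesis, was 15.7 FPKM in Myc, 15.8 in MycN, 1.93 in Minimal Myc and 6.99 in vector. Nov, a matricellular protein of the CCN family, was 27.6, 22.9, 3.52 and 18.5, and Mgst2, a glutathione transferase of membranes, was 38.2, 35.3, 6.70 and 12.7. In each of these Myc and MycN had similar levels, Minimal Myc was the lowest library and vector lay between. For Nov vector was nearer to the full-length libraries than to Minimal Myc.

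Cnnm1 and Nipsnap1 had another pattern, with both Minimal Myc and vector low. Cnnm1, of a family of metal transporters, was 5.51 FPKM in Myc, 4.62 in MycN, 0.325 in Minimal Myc and 0.175 in vector. Nipsnap1, a mitochondrial protein, was 7.93, 5.12, 0.592 and 1.09 FPKM. The same held for Pcgf6, a Polycomb group protein that pairs with Max and Mga in a repressive complex, at 13.3 FPKM in Myc, 13.1 in MycN, 3.07 in Minimal Myc and 1.70 in vector, a gene outside the lists and chosen after its values were seen. Klrg2 (10.4, 8.80, 1.37 and 5.88 FPKM in Myc, MycN, Minimal Myc and vector), Ngef, a guanine nucleotide exchange factor (7.20, 6.83, 1.15 and 6.98), and Glt1d1 (3.12, 2.96, 0.0829 and 1.19) were high in vector too. Mmp9, a gelatinase, was highest in MycN, at 14.1 FPKM in Myc, 41.6 in MycN, 3.22 in Minimal Myc and 11.8 in vector. Of the 170 genes 42 were small RNA genes and 22 were listed at 0 in 1 of the 3 libraries, where a 0 can be a failed estimate. Vector was nearer to the full-length libraries in 109 of them (64.1%), and median levels were 1.53 FPKM in Minimal Myc, 4.39 in vector, 8.14 in Myc and 10.6 in MycN.

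**Figure D4:**
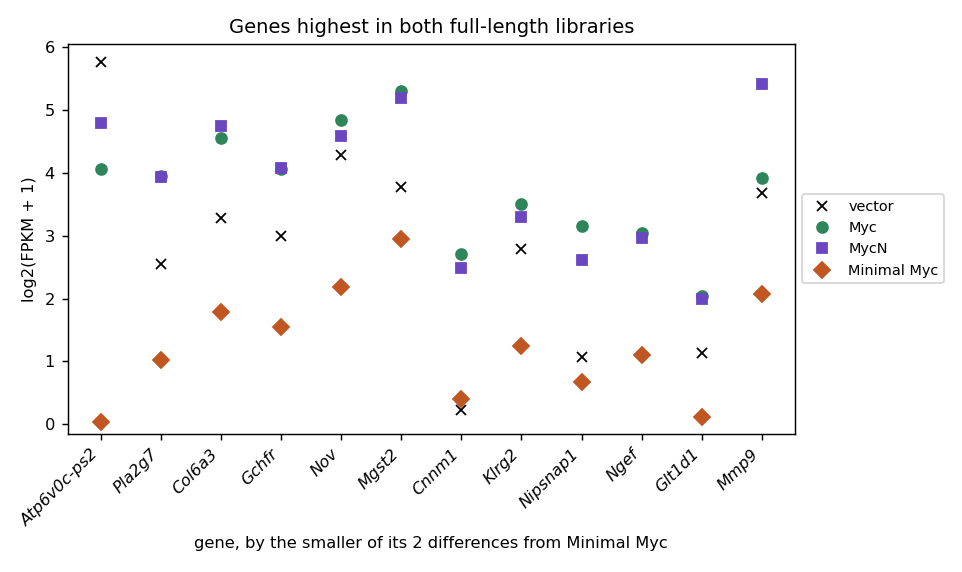
Level as log2(FPKM + 1) in the 4 libraries for the 12 named genes highest in both full-length libraries, ordered by the smaller of their differences from Minimal Myc. Minimal Myc is the lowest library for each gene except Cnnm1, where vector is lower (0.175 against 0.325 FPKM).

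Matrix and adhesion genes went both ways. Among all genes kept 37.1% lay on each side, 1.42% were at least 2-fold higher and 3.55% at least 2-fold lower. Of 20 collagens 10 were higher in both and 5 lower, with 3 and 2 at 2-fold and a median of 0.34. Col6a2 and Col18a1 were 64.0 and 4.44 FPKM in Myc, 87.9 and 7.32 in MycN, 30.4 and 0.623 in Minimal Myc, and 31.3 and 1.38 in vector. Col12a1, which decorates collagen fibrils, was 3.02, 4.91, 20.98 and 2.15 FPKM in Myc, MycN, Minimal Myc and vector. Matrix glycoproteins had 6 of 46 genes at 2-fold on each side. Spp1, osteopontin, was 220 FPKM in Myc, 82.7 in MycN, 1441 in Minimal Myc and 234 in vector, and Thbs1, thrombospondin, was 223, 71.5, 528 and 127. Nid2, a basement membrane linker, was 6.19, 8.67, 1.67 and 2.56 FPKM. Of 23 adhesion receptors 10 were lower, near the share of all genes, and 4 at least 2-fold. Those 4 included Cdh11, the cadherin of mesenchyme, at 33.5, 30.6, 88.5 and 33.5 FPKM. Contractile genes were lower in 12 of 18, with 1 at 2-fold: Cnn1, calponin, at 2.46, 2.04, 8.82 and 3.90 FPKM.

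Secreted signals and their receptors were more often lower, in 30 of 49 growth factor genes against 9 higher. Of the 49, 8 were at least 2-fold lower, and the median was -0.47. All genes kept had 37.1% on each side and 3.55% at least 2-fold lower. Hgf, hepatocyte growth factor, was 2.57 FPKM in Myc, 5.60 in MycN, 29.3 in Minimal Myc and 3.04 in vector. Igfbp4, which binds insulin-like growth factors, was 3.75, 0.573, 28.7 and 1.22 FPKM. Ereg, a ligand of the Egf receptor, was 10.7, 9.46, 46.2 and 17.0. Minimal Myc was the highest library for 26 of the 49, against 4219 of 11950 genes kept. Gdf10, a Bmp-like factor, was among the 12 lowest genes at 0.254 FPKM in Myc, 0.0417 in MycN, 26.2 in Minimal Myc and 5.32 in vector. Of 27 Wnt and Notch genes 12 were higher and 12 lower, with 0 at least 2-fold higher and 4 at least 2-fold lower. Among those 4 was Fzd1, a Wnt receptor, at 7.28, 5.87, 30.2 and 7.58 FPKM in Myc, MycN, Minimal Myc and vector.

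Immediate early genes, which answer a growth stimulus within minutes, were lower in 14 of 32, near the 37.1% of all genes, and higher in 8, with a median of -0.20 (0.12 in the scaled table without centring). Egr1 was 20.1 FPKM in Myc, 24.5 in MycN, 97.9 in Minimal Myc and 37.9 in vector. Imprinted genes, expressed from 1 parental copy, divided by locus. Meg3 and Rian, adjoining non-coding RNAs, were 12.8 and 9.74 FPKM in Minimal Myc and at most 1.21 and 0.988 elsewhere, and Igf2 was 0.254, 0.123, 3.58 and 0.662 in Myc, MycN, Minimal Myc and vector. Peg3 was on the high side at 6.77, 9.99, 1.71 and 6.41 FPKM. Hmox1, heme oxygenase, was 153 FPKM in Myc, 131 in MycN, 64.8 in Minimal Myc and 147 in vector, the 1 gene of 30 in the Nrf2 and glutathione list at 2-fold.

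Position in the genome was not used to choose the genes, apart from those of the printed promoter stretches. Of the genes kept 11888 (99.5%) matched RefSeq (GRCm38.p6, for chromosome and order alone, since the authors' build was mm9). On the X chromosome 293 of 373 genes (78.6%) were lower in both full-length libraries and 17 higher, and 53 (14.2%) were at least 2-fold lower. Over all genes kept 37.1% lay on each side and 3.55% were at least 2-fold lower. The median was -0.58 in Myc, -0.75 in MycN and -0.60 in vector, so the X-linked level in Minimal Myc stood above all 3 other libraries. Timp1, an inhibitor of matrix proteases, was 76.3 FPKM in Myc, 60.8 in MycN, 708 in Minimal Myc and 144 in vector. Msn, the membrane linker moesin, was 118, 77.2, 254 and 103 FPKM, and Pgrmc1, a heme-binding membrane protein, was 64.2, 52.4, 140 and 51.2. Lamp2 of the lysosome (78.3, 89.6, 188 and 73.5 FPKM) and Ndufa1 of respiratory complex I (77.2, 92.1, 215 and 84.0) were among the X-linked members of their lists. Il13ra1 and Il13ra2, receptors of Il13, were 29.8 and 6.18 FPKM in Minimal Myc and at most 5.55 and 0.252 elsewhere. Xist, the RNA of the inactive X, was 67.1 FPKM in Myc, 79.9 in MycN, 81.6 in Minimal Myc and 134 in vector, and Kdm5d of the Y chromosome was listed at 0 in all. Chromosome number was not measured, and its part in the X-linked values was not tested.

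Other chromosomes had smaller shifts, to be read beside the 37.1% of all genes kept that lay on each side. Chromosome 18 had a median of -0.30 with 68.1% of genes lower (vector 0.05), chromosome 16 had -0.25 with 67.7% lower, and chromosome 9 had -0.21 with 58.2% lower. Chromosome 8 was shifted the other way, at 0.24 with 55.8% higher, and more in MycN (0.41) than in Myc (0.09). Of the at least 2-fold lower genes of the interferon lists 0 lie on X, and after centring each gene on the median of its own chromosome the antiviral effectors stood at -2.69, the GTPases at -3.29 and MHC class I at -1.36. With that centring 353 genes were at least 2-fold lower and 167 higher.

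**Figure D5:**
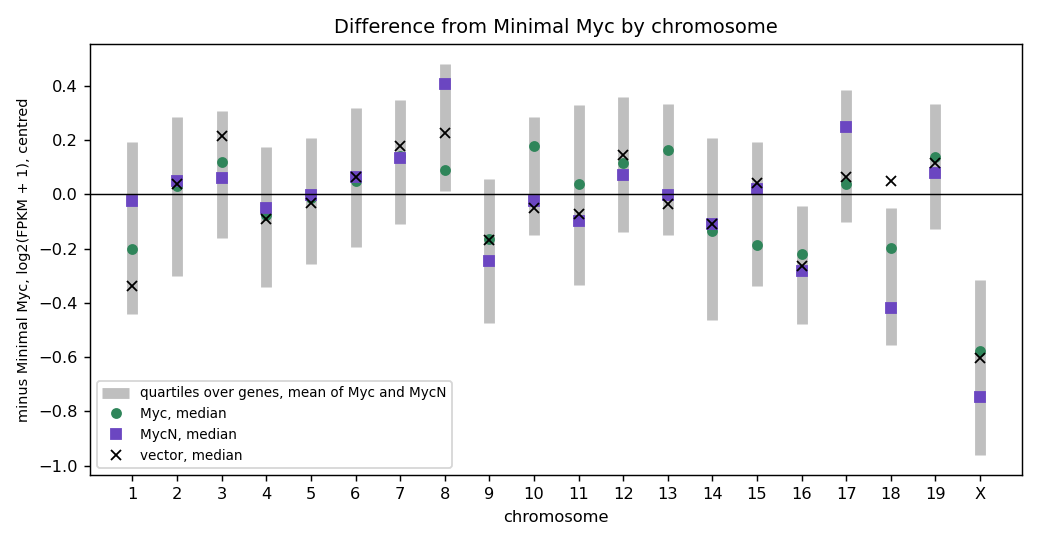
Median centred difference from Minimal Myc on log2(FPKM + 1) by chromosome for Myc, MycN and vector, with grey bars for the quartiles over genes of the mean of Myc and MycN. The X chromosome is lowest in all 3 (-0.58, -0.75 and -0.60), and chromosome 18 is low in Myc and MycN but not in vector.

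Lower genes also lay side by side. With genes kept in chromosome order and small RNAs left out, 149 of 398 at least 2-fold lower genes (37.4%) had another such gene next to them, as did 578 of 11187 other genes (5.17%). On the high side 11 of 128 (8.59%) did, against 2.12%. Runs on the low side were families of copies: Gbp7, Gbp3, Gbp1 and Gbp2 on chromosome 3, Gbp9, Gbp4, Gbp10 and Gbp6 on chromosome 5, Oas1b, Oas1g and Oas1a on chromosome 5, and a run of 8 on chromosome 1 that holds the Ifi200 family from Ifi204 to Ifi205. Other runs were Psmb9, Tap1 and Psmb8 on chromosome 17, Parp14, Dtx3l and Parp9 on chromosome 16, and Rassf6, Cxcl5 and Ppbp on chromosome 5.

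NanoString, a hybridization count of RNA molecules, was deposited for 30 genes and was not used to choose any. Against Minimal Myc its median ratio was 1.62 in Myc, with 30 of 30 genes above, and 1.07 in MycN, with 19 above. FPKM ratios of the same genes had medians of 1.22 (21 above) and 1.05 (19 above). Of 18 genes on the high side by FPKM, 16 were above Minimal Myc in both full-length libraries by NanoString and 2 had Myc and MycN on opposite sides. Of 7 on the low side 0 were below in both, since all 7 were above in Myc. Once each NanoString ratio was divided by its median, 10 of the 18 were above in both, 7 were on opposite sides and 1 was below, and all 7 of the low side were below in both. Cdca7, a Myc target, had a signal of 2688 in Myc, 2105 in MycN, 1122 in Minimal Myc and 1007 in vector. B2m had 62438, 22834, 57149 and 46911, so it was 1.09 times Minimal Myc in Myc by NanoString and 0.392 times by FPKM, whereas MycN gave 0.400 and 0.461. Npm1, the nucleolar chaperone, had ratios of 1.42 in Myc and 0.772 in MycN by NanoString and 0.888 and 0.495 by FPKM. Genes are not replicates, and both ratios share the Minimal Myc library; across these 30, log2 ratios by the 2 readouts had Pearson's r of 0.790 in Myc and 0.847 in MycN and Spearman's rho of 0.810 and 0.753. None of the interferon effectors or sensors was on this panel, and of the class I genes described above it held B2m alone.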

How the data were processed

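RNA from 4 cultures was measured by poly(A)-selected, strand-keeping RNA-seq, with 1 library per group. The submitters' processing notes name build mm9 with Cufflinks 2.2.0 and TopHat2 2.0.11. The authors deposited FPKM for 26576 rows, and a NanoString signal for 32 rows of 30 genes; how that signal was normalized is not given in the sources. FPKM hold no depth, so read depth is unknown and no counting interval can be given. Spike-in RNAs that the labels mention were not used here.

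Rows of 1 gene name were merged if identical and otherwise summed, for 189 of 23366 names. Genes averaging 1 FPKM or more were kept, and 1 FPKM was added before taking log2. Differences were centred on their own medians. The calculation was tested on simulated data. Lists give counts and medians with no test. Named were the 12 highest and 12 lowest genes by the smaller of both differences, up to 5 members of each list, Myc, Mycn, Max and fibroblast markers, without small RNA genes, provisional symbols, genes with differing rows or genes listed at 0. Others were chosen after their values were seen. Some genes that the rule takes are not reported here. The genes and lists were chosen with earlier results of these data known. Python 3.11.15, pandas 2.3.3, numpy 2.4.6 and matplotlib 3.10.9 were used.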

Additional observations from a re-analysis of the deposited data

How the results depend on the processing

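The number of genes past 2-fold depended on the settings. A pseudocount of 0.1 FPKM gave 308 genes at least 2-fold higher in both, and one of 5 gave 52 higher and 241 lower, against 170 and 424. A mean of at least 5 FPKM gave 112 higher and 255 lower, and a limit of 1.5-fold gave 523 and 930. Myc alone gave 304 higher, and MycN alone 565 higher and 796 lower. The scaled table without centring gave 409 higher and 268 lower, with 1187 genes below Minimal Myc at any size. Without a filter 7271 genes lay on each side. Alternatives added after seeing the data gave 375 lower and 166 higher without X-linked genes, and 334 and 167 without the interferon lists. Of 623 values of list medians under the alternatives 500 moved by less than 1 SD of the list's Myc and MycN values and 123 by more. That SD comes from 2 proteins rather than replicates, and the settings with Myc or MycN alone tend to stay within it by construction. The 500 are therefore no measure of robustness. Medians near 0 changed sign under some alternatives. Medians of the antiviral effectors (-3.37 to -1.96) and GTPases (-4.02 to -2.12) stayed below 0 in all 14 alternatives. No paired analysis was possible because each group has 1 library. Read depth is unknown, so low FPKM carry an unknown counting error.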

Other observations

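Among the lower genes outside every list, chosen after their values were seen, several are known to be induced by interferon or by microbial products. Ch25h, which makes the antiviral sterol 25-hydroxycholesterol, was 0.433 FPKM in Myc, 0.307 in MycN, 10.1 in Minimal Myc and 0.142 in vector. Samd9l, an antiviral restriction factor, was 3.58, 3.16, 32.0 and 4.55 FPKM in the same order, and Plac8 was 1.48, 0.563, 22.1 and 0.751. Nsg1, a neuronal endosome protein, was 7.39, 9.77, 83.6 and 3.22 FPKM, so a gene of an unrelated kind shared the pattern of 1 library standing apart.

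On the high side outside the lists, Enpp2, which makes lysophosphatidic acid, was 7.73 FPKM in Myc, 4.13 in MycN, 0.525 in Minimal Myc and 1.31 in vector. Smpdl3b, a lipid phosphodiesterase of the cell membrane, was 32.5, 25.9, 8.06 and 4.17 FPKM, and Slc43a1, an amino acid transporter, was 4.08, 7.70, 0.517 and 0.440. In both of the latter Minimal Myc and vector were low together. Efna5, an ephrin ligand, was 3.45, 5.80, 0.273 and 3.28 FPKM, low in Minimal Myc alone.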
